A study of Saccharomyces cerevisiae with 6 samples.

Results

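The COS genes are a repeated family of the yeast Saccharomyces cerevisiae that sits at the chromosome ends. They were measured in a strain whose histone H4 has histidine in place of arginine at residue 45 (H4R45H) and in its wild-type counterpart WY139. The family was picked with earlier results of these data known. Its probe sets were then chosen by gene symbol alone, as those whose symbol is COS followed by a digit. This took 9 of the 5716 probe sets in the deposited table, each for a different gene. One of them, COS111, is no member of the family. Its gene is named for sensitivity to the antifungal drug ciclopirox olamine, so it is given apart, and 8 probe sets stand for the family.

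The H4R45H group held 3 arrays of a yeast strain with that single substitution in histone H4, and the wild-type group held 3 arrays of strain WY139 with unchanged H4. Both strains grew in YPD, a rich glucose medium, and were collected in mid-log phase at an optical density of 0.5 to 0.7. About 20 µg of total RNA per sample was made into biotin-labelled target for one-colour Affymetrix arrays. The labels do not say whether the 3 samples of a strain came from separate cultures or clones, and the spread behind each p-value may therefore be technical. In RNA from a whole culture, a change in every cell and a change in some cells cannot be told apart.

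Cos proteins cross the membrane several times and are found on endosomes. There they are known to gather other membrane proteins and carry them into multivesicular bodies, the step before breakdown in the vacuole. Genes near yeast telomeres can be held down by telomere position effect, a form of silencing in which Rap1 and the Sir proteins bind chromosome ends and the Sir2 deacetylase removes acetyl groups from histones, and COS genes lie in this zone. The number and placement of COS copies vary between yeast strains.

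The gene table of the S288C reference strain lists 11 COS genes beside COS111. All 11 lie in places 1 to 6 from a chromosome end, counted in protein-coding genes, and COS111 lies in place 100. Their coding length is 1125 to 1224 bases, against 2775 bases for COS111. By their systematic names, 10 of the 11 are read toward the centromere, the exception being COS10, while 41.4% of the 309 other genes among the 10 outermost of each arm are. COS1, COS3 and COS5 have no probe set named for them. Of the 8 family probe sets, those of COS2, COS4 and COS7 are of the _s_at type, which can bind several transcripts, 0 are of the _x_at type and the other 5 are plain _at sets. The copies are alike in sequence, so how the signal of an _s_at set divides between them is not known, and binding by other copies was not tested for the plain sets either. WY139 may also carry other copies than S288C.

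The mean signal per array was 277 to 280 in H4R45H and 284 to 287 in wild type, and the median signal was 159 to 163 in H4R45H and 148 to 151 in wild type. Log2 signals correlated across probe sets, which do not count as replicates, at 0.990 to 0.995 between H4R45H arrays, 0.993 to 0.994 between wild-type arrays and 0.935 to 0.958 between the strains. A point mutation in H4 leaves no mark on these probes, so the labels cannot be checked from it.

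Most of the COS family was higher in H4R45H. All 8 family probe sets passed the test as deposited, in limma's moderated test adjusted by Benjamini-Hochberg across the whole table of 5716, at an adjusted p under 0.05. The background was high, since 37.7% of all probe sets were called higher and 28.7% lower. The median log2 difference of the 8 was 0.64, against 0.06 for all probe sets. It was 0.65 for the 227 other genes measured among the 10 outermost of each arm. The fit was repeated under other scalings, with other treatment of dim signals and without single arrays, 14 settings in all. COS12, COS8, COS7, COS6 and COS4 were called higher in each setting in which they were fitted, and COS2 in 13 of 14. COS9 and COS10 were called higher as deposited but not after quantile or cyclic loess normalization, nor COS9 after median centring, and COS10 was called lower after quantile normalization, which gives all arrays the same distribution of signals. Every H4R45H array lay above every wild-type array for all 8, as for 40.4% of all probe sets.

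**Figure D1:**
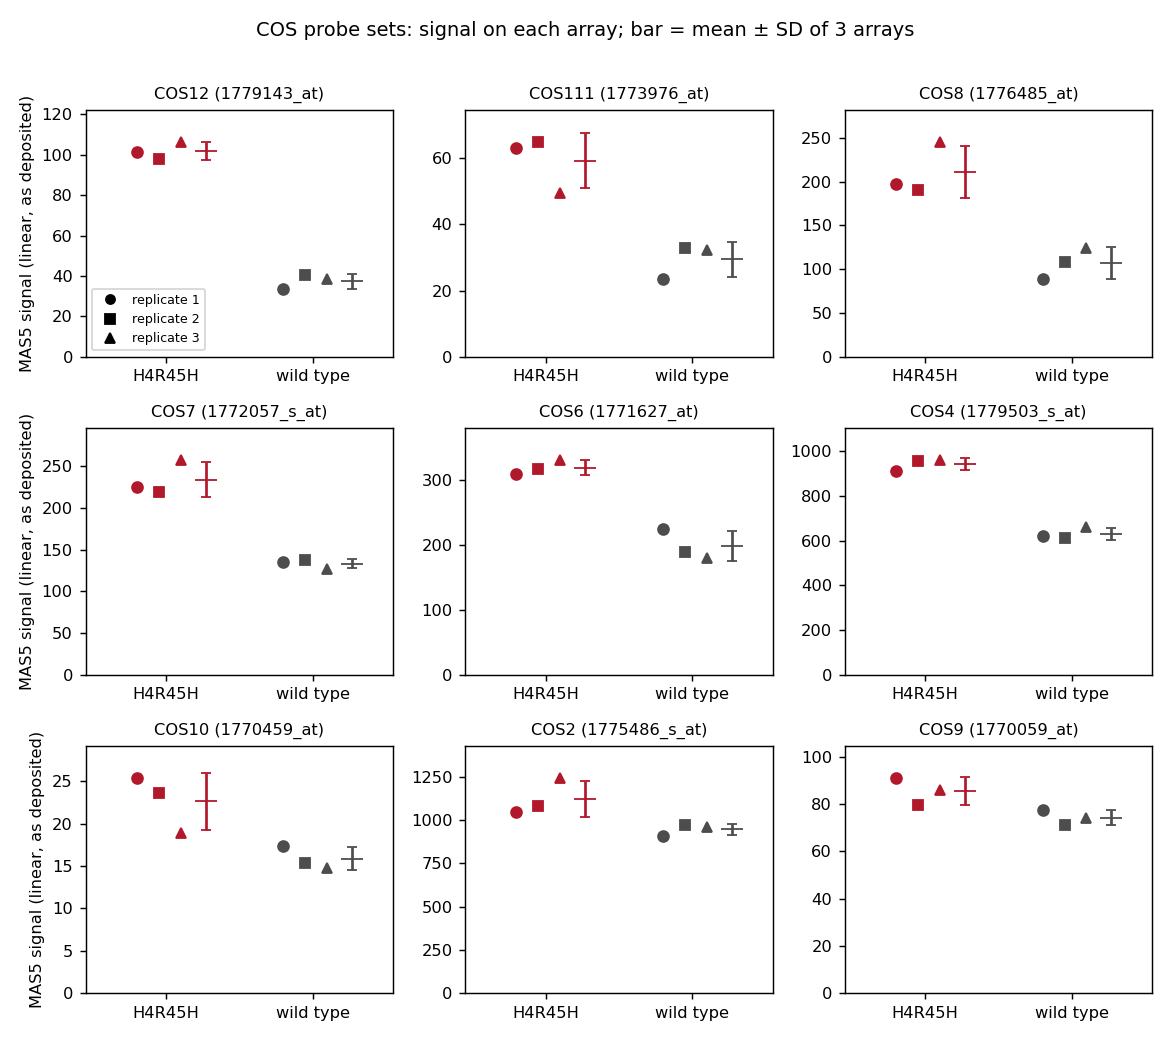
Signal of each COS probe set on each array, on a linear axis from 0, with H4R45H on the left and wild type on the right of each panel and a bar for the mean and SD of 3 arrays. The strains are far apart for COS12, with 97.9 as the lowest H4R45H signal and 40.5 as the highest wild-type signal, and nearly touch for COS9, with 79.5 as the lowest in H4R45H and 77.5 as the highest in wild type.

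COS12 (YGL263W), the outermost gene of the left arm of chromosome VII, had the largest difference of the family. Its signal was 101.5, 97.9 and 106.4 on the H4R45H arrays, against 33.4, 40.5 and 38.3 on the wild-type arrays. The lowest H4R45H signal was 2.42 times the highest wild-type signal. The mean was 102 ± 4.27 in H4R45H and 37.4 ± 3.63 in wild type (SD, n = 3 each), and limma gave a log2 difference of 1.45 (SE 0.091, adjusted p = 4.7e-07), or 2.73-fold. The size depended on how dim signals were treated, at 2.06-fold after quantile normalization and 1.74-fold with a pseudocount of 50. Only 4.78% of all probe sets had a larger difference.

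COS8 (YHL048W), in place 4 from the left end of chromosome VIII, followed it. Its signal was 197.8, 190.6 and 245.5 in H4R45H, against 88.6, 108.2 and 124.6 in wild type. Each strain was uneven here, with coefficients of variation of 14.1% in H4R45H and 16.8% in wild type, yet the lowest H4R45H array stood 1.53 times above the highest wild-type array. The log2 difference in limma was 0.98 (SE 0.13, adjusted p = 7.1e-05).

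COS7 (YDL248W), the outermost gene on the left of chromosome IV, had signals of 225.5, 218.8 and 257.4 in H4R45H, against 135.1, 138.0 and 126.9 in wild type. The wild-type arrays were close together and all H4R45H arrays lay well above them. Its log2 difference in limma was 0.81 (SE 0.076, adjusted p = 7.4e-06), from an _s_at probe set. COS6 (YGR295C), in place 2 on the right of chromosome VII, had 309.7, 318.0 and 331.4 in H4R45H, against 224.7, 190.1 and 180.4 in wild type. Here the H4R45H arrays were the even ones, and wild type replicate 1 was the highest of its strain. The limma log2 difference was 0.69 (SE 0.082, adjusted p = 3.7e-05), or 1.62-fold. COS12 and COS6 lie at opposite ends of the same chromosome.

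COS4 and COS2 gave bright signals, in the brightest 10% of probe sets by mean signal, both from _s_at sets. COS4 (YFL062W), in place 6 on the left of chromosome VI, had 913.5, 959.0 and 961.6 in H4R45H, against 620.8, 611.8 and 660.6 in wild type. Both strains were even, with coefficients of variation of 2.86% in H4R45H and 4.12% in wild type, and limma gave a log2 difference of 0.58 (SE 0.050, adjusted p = 3.9e-06). COS2 (YBR302C), the outermost gene on the right of chromosome II, had 1045.3, 1081.7 and 1244.2 in H4R45H, against 910.3, 972.5 and 959.7 in wild type. H4R45H replicate 3 stood above the other two, and the strains were separated by a factor of only 1.07 between the lowest H4R45H and the highest wild-type array. The limma log2 difference of COS2 was 0.24 (SE 0.065, adjusted p = 0.0072), and it was 0.29 without H4R45H replicate 1 and 0.17 without H4R45H replicate 3. Median centring, which sets each array's median log2 signal equal, took the difference to 0.14 (adjusted p = 0.11), while quantile normalization gave 0.39 (adjusted p = 0.00026).

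COS10 and COS9 were the members whose direction was not settled. COS10 (YNR075W), in place 4 on the right of chromosome XIV and the family member read toward the telomere, had 25.4, 23.6 and 18.9 in H4R45H, against 17.4, 15.4 and 14.8 in wild type. These are signals of the dimmest 10% of probe sets. The log2 difference in limma was 0.50 as deposited (SE 0.14, adjusted p = 0.0098). After quantile normalization the signals were 19.0, 18.3 and 14.4 in H4R45H, against 26.2, 21.4 and 20.4 in wild type, and the order of the strains was turned round. The difference was then -0.40 (adjusted p = 0.036), and after cyclic loess normalization, which removes trends with signal, it was -0.18 (adjusted p = 0.35).

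COS9 (YKL219W), in place 5 on the left of chromosome XI, had 91.1, 79.5 and 86.1 in H4R45H, against 77.5, 71.1 and 74.2 in wild type. The ranges did not overlap but lay within a factor of 1.03 of each other at their nearest points. The limma log2 difference was 0.20 as deposited (SE 0.079, adjusted p = 0.042), -0.07 after quantile normalization (adjusted p = 0.46), where the strains overlapped, and -0.02 after cyclic loess normalization (adjusted p = 0.86). COS9 was called higher in 7 of the 14 settings. The call was also lost after median centring (0.10, adjusted p = 0.28), without H4R45H replicate 1 or 3 and without wild type replicate 2 or 3 (adjusted p = 0.14, 0.083, 0.14 and 0.074 for the arrays in that order).

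COS111 (YBR203W), the gene that shares only the symbol, had 63.0, 64.9 and 49.6 in H4R45H, against 23.4, 32.8 and 32.1 in wild type. All H4R45H arrays were above all wild-type arrays. The limma log2 difference was 1.01 as deposited (SE 0.15, adjusted p = 0.00016) and 0.43 after quantile normalization (adjusted p = 0.017). COS111, in place 100 from a chromosome end, was thus called higher on both scales. Probe sets of like brightness were taken from 10 classes of equal size. In the class of COS111, 63.5% were called higher as deposited and 31.1% after quantile normalization. A larger difference than that of COS111 was found for 19.2% of this class as deposited and 23.1% after quantile normalization. Whether place has a part in its difference was not tested. With COS111 included, 9 of 9 probe sets were called higher as deposited and the median log2 difference was 0.69.

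**Figure D2:**
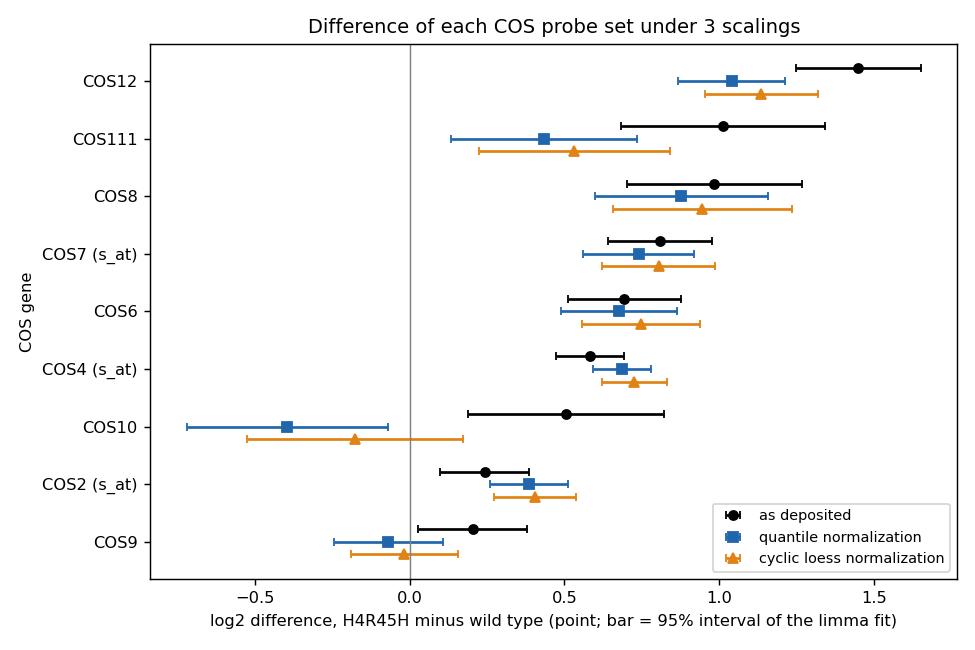
Log2 difference, H4R45H minus wild type, of each COS probe set as deposited (circles), after quantile normalization (squares) and after cyclic loess normalization (triangles), with 95% intervals from limma. COS12 is at 1.45, 1.04 and 1.14, while COS10 is at 0.50, -0.40 and -0.18.

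The scaling moved the dimmest and the brightest members in opposite directions. The median of all probe sets was 0.06 as deposited and -0.06 after quantile normalization, a shift that has to be taken off when the scales are compared. In the quantile-normalized fit 6 of the 8 family probe sets were called higher and 1 lower, against 27.2% and 36.3% of all probe sets. Without overlap and higher were 6 of the 8, against 29.4% of all. After cyclic loess normalization the counts were 6 higher and 0 lower, against 31.0% and 30.0%, with COS9 and COS10 not called. The median log2 difference of the 8 was 0.68 after quantile and 0.74 after cyclic loess normalization. Taken relative to the median of all probe sets it was 0.58 as deposited, 0.74 after quantile normalization and 0.74 after cyclic loess.

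Differences moved with signal, so the members were set beside probe sets of like brightness, in 10 classes of equal size (deciles). As deposited, the dimmest decile had a median log2 difference of 0.71 with 63.2% called higher, and the brightest decile had -0.18 with 9.09% called higher. COS10, at 0.50, lay below the median of its own decile, and COS9, at 0.20, lay at the median of its own, which was also 0.20. Among the bright probe sets 1.57% had a larger difference than COS4, and 6.12% of the same decile had a larger one than COS2. In their own deciles COS7 was exceeded by 6.13% of probe sets, COS8 by 6.47%, COS6 by 9.27% and COS12 by 10.7%. These shares were 1.92% for COS4, 5.94% for COS2 and 8.92% for COS12 after quantile normalization.

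**Figure D3:**
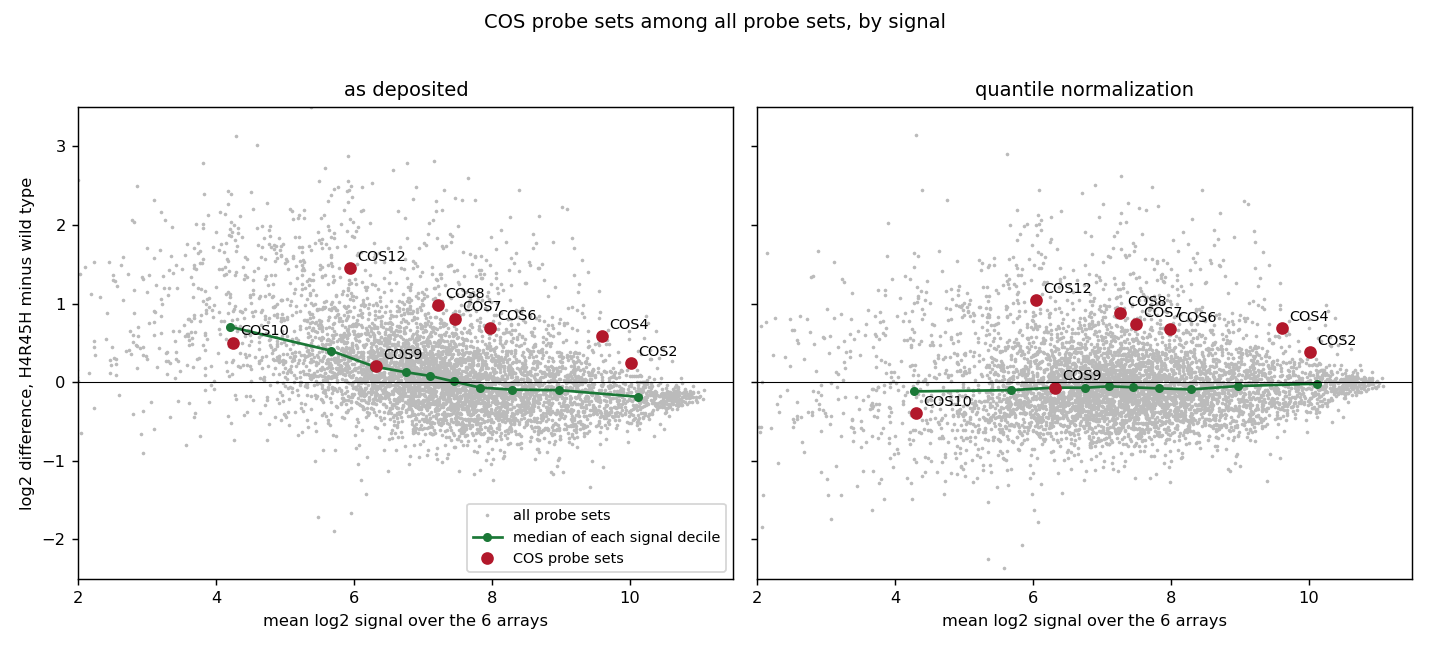
Log2 difference, H4R45H minus wild type, against the mean log2 signal over 6 arrays for all probe sets (grey), with the median of each signal decile (green) and the 8 COS family probe sets (red), as deposited and after quantile normalization. The green line falls from 0.71 to -0.18 as deposited and is nearly flat after quantile normalization, COS9 and COS10 lie near or below it, and the other 6 lie above it. The axes leave out 69 probe sets as deposited and 62 after quantile normalization.

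As deposited the 95% interval of the log2 difference ran from 1.25 to 1.65 for COS12 and from 0.70 to 1.27 for COS8. It ran from 0.10 to 0.39 for COS2 and from 0.03 to 0.38 for COS9. Differences between members were not tested. The 3 _s_at sets, at 0.81, 0.58 and 0.24, lay within the range of the 5 plain sets, 0.20 to 1.45. With a minimum of 1.5-fold beside the adjusted p, 4 of the 8 were called higher (COS12, COS8, COS7 and COS6), against 18.6% of all probe sets, and COS4 was at 1.497-fold. Distance from the end did not order the differences. The genes in place 1, COS12, COS7 and COS2, had log2 differences of 1.45, 0.81 and 0.24, and COS4 in place 6 had 0.58. H4R45H replicate 3 gave the highest H4R45H signal for 6 of the 8 family probe sets, and for 37.3% of all probe sets. Without that array the log2 differences were 1.42 for COS12, 0.87 for COS8, 0.74 for COS7 and 0.67 for COS6.

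The nearest measured genes to the COS genes were mostly higher too. For each family gene with a probe set, up to 2 measured genes on either side were taken in the order of the gene table, which gave 22 genes. Of these, 9 were read from _s_at or _x_at sets, whose signal may come in part from other genes. The 9 include every neighbour taken for COS7, COS4 and COS2. As deposited 18 of the 22 were called higher and 0 lower (19 and 0 at an unadjusted p under 0.05), against 37.7% and 28.7% of all probe sets, with a median log2 difference of 1.06, and 21 of the 22 lay in the dimmer part of the array. After quantile normalization 15 were higher and 1 lower, against 27.2% and 36.3% of all probe sets, with a median of 0.55. Of the other genes among the 10 outermost of each arm with a probe set, 157 of 227 were called higher (69.2%) as deposited and 120 (52.9%) after quantile normalization, and these include the neighbours. Called lower were 26 as deposited and 39 after quantile normalization. Of the 227 genes, 164 lay in the dimmer part of the array. In the dimmest decile of all probe sets, 63.2% were called higher as deposited and 27.5% after quantile normalization. In the next decile these shares were 63.5% and 31.1%. Neither the neighbours nor the outermost genes were compared with probe sets of like brightness. At each of the 8 ends at least 1 of the neighbours was called higher as deposited.

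The left end of chromosome XI was uneven around COS9. MCH2, a relative of monocarboxylate transporters 2 places further out, had 61.8, 67.7 and 77.5 in H4R45H, against 6.9, 8.5 and 10.3 in wild type. Its limma log2 difference was 3.02 (SE 0.16, adjusted p = 1.3e-07). JEN1, the lactate transporter 2 places further in, had 142.9, 138.1 and 145.1 in H4R45H, against 25.3, 26.5 and 26.5 in wild type, a limma log2 difference of 2.44 (SE 0.075, adjusted p = 1.3e-08). With a pseudocount of 50, which damps differences between dim signals, the log2 difference was 1.02 for MCH2 and 1.34 for JEN1, and after quantile normalization it was 2.32 and 2.02. FRE2, a ferric reductase, lies between MCH2 and COS9 and rose by 0.96 on the log2 scale, whereas SRY1, a hydroxyaspartate dehydratase between COS9 and JEN1, had a difference of 0.01 (adjusted p = 0.94). COS9 and SRY1, next to each other, thus had small differences with larger ones on both sides. SRY1 was the neighbour called lower after quantile normalization, at -0.26 (adjusted p = 0.022).

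At the left end of chromosome VIII the genes on both sides of COS8 were also higher. The small reading frame YHL048C-A had 18.9, 17.4 and 21.2 in H4R45H, against 3.6, 4.1 and 3.8 in wild type, a log2 difference of 2.32 in limma (adjusted p = 1.5e-06) from signals at the bottom of the scale. The siderophore transporter gene ARN2 had 243.4, 241.0 and 250.1 in H4R45H, against 90.7, 104.5 and 89.3 in wild type, a log2 difference of 1.37 (adjusted p = 1.9e-07). ECM34, further in, had a log2 difference of 2.16. With a pseudocount of 50 the log2 differences were 0.36 for YHL048C-A, 1.03 for ARN2, 0.56 for ECM34 and 0.73 for COS8, and after quantile normalization they were 1.53, 1.25, 1.35 and 0.88. Differences between COS8 and these genes were not tested. Next to COS12, YGL262W was 4.01-fold higher as deposited (adjusted p = 3.0e-06 in limma), with a log2 difference of 1.16 after quantile normalization and 0.57 with a pseudocount of 50. Next to COS2 PAU24, of the seripauperin family, had one of 0.19 (adjusted p = 0.17; 0.29, adjusted p = 0.046, without wild type replicate 2), and MAL32, a maltase, one of 1.10, both read from _s_at or _x_at sets. Next to COS10 AIF1, a mitochondrial cell death factor, had one of 0.43, and YNR075C-A one of 0.12 (adjusted p = 0.76). As deposited, 1 gene directly beside each of COS2, COS9 and COS10, the members with the smallest differences, did not pass the test. The genes directly on the other side, FRE2 beside COS9 and AIF1 beside COS10, were called higher. Whether the differences of adjacent genes go together was not tested. COS2 is the outermost gene of its arm and has a gene on 1 side only. YNR075C-A gave signals at the bottom of the scale, 2.9 to 6.5 in H4R45H and 3.6 to 5.0 in wild type. After quantile normalization YFL064C, beside COS4, was not called either (-0.30, adjusted p = 0.15 in limma), while SRY1, beside COS9, was called lower.

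**Figure D4:**
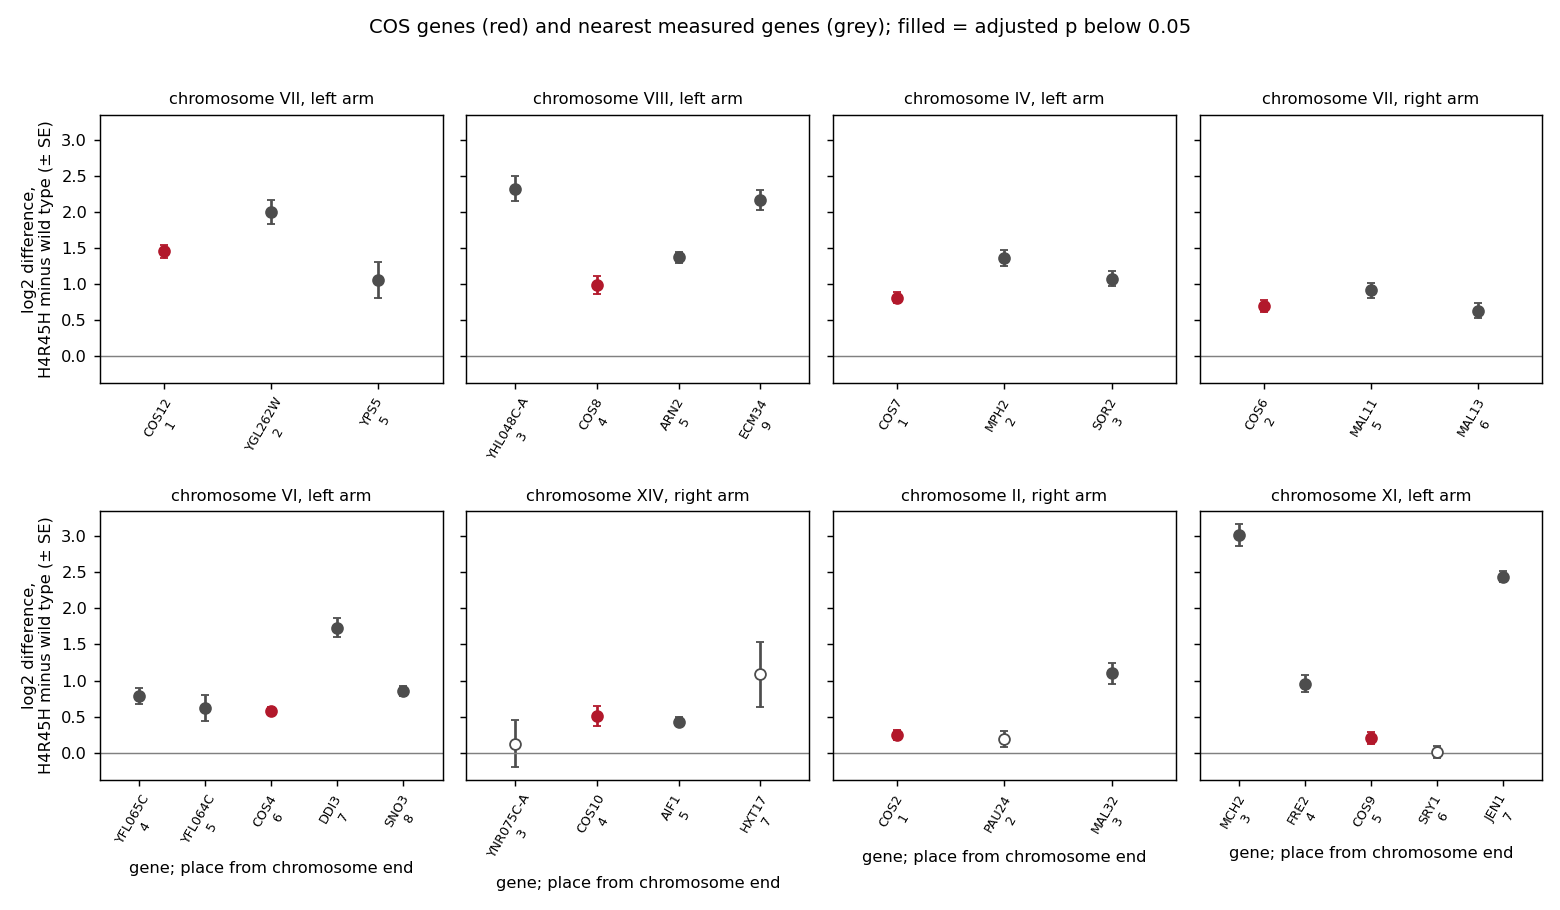
Log2 difference, H4R45H minus wild type, with its SE as deposited, of each COS family gene (red) and its nearest measured neighbours (grey), 1 panel per chromosome end, ordered by place from the end. Filled points passed the test. MCH2 at 3.02 and JEN1 at 2.44 flank COS9 at 0.20, and COS8 at 0.98 lies between YHL048C-A at 2.32 and ARN2 at 1.37. YFL061W is drawn under its RefSeq name DDI3.

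The DUP240 genes, the related family of small membrane proteins, were only partly measured, since 5 of its 10 genes had a probe set and MST28 had a pair of them. As deposited 4 of the 6 probe sets were called higher and 0 lower, also at an unadjusted p under 0.05 in limma, against 37.7% and 28.7% of all probe sets. After quantile normalization 3 were called higher and 2 lower, against 27.2% and 36.3% of all. The median log2 difference was 0.55 as deposited and 0.21 after quantile normalization. UIP3, PRM8 and MST27 were higher on both. UIP3 had 295.6, 315.5 and 333.8 in H4R45H, against 184.9, 182.3 and 204.8 in wild type. Its log2 difference, 0.72 as deposited (SE 0.071, adjusted p = 9.8e-06 in limma) and 0.70 after quantile normalization, is close in size to that of COS6. PRM8, which is induced by pheromone, had 0.98 as deposited and 0.69 after quantile normalization, and MST27, a protein of vesicle formation, had 0.97 and 0.34. MST28, from its _s_at set, had 0.37 as deposited (adjusted p = 0.0039) and 0.08 after quantile normalization (adjusted p = 0.41). Its plain set had 0.28 as deposited (adjusted p = 0.076) and -0.38 after quantile normalization (adjusted p = 0.031). PRM9 had 0.15 as deposited (adjusted p = 0.24 in limma) and -0.33 after quantile normalization (adjusted p = 0.021). Of the 6 probe sets, 5 lay in the dimmer part of the array.

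Of 15 genes for telomere position effect 5 were called higher and 3 lower as deposited, or 33.3% and 20%, against 37.7% and 28.7% of all probe sets. After quantile normalization 1 was higher and 9 were lower, or 6.67% and 60%, against 27.2% and 36.3% of all. RAP1, whose product binds telomere repeats and recruits Sir proteins, had 102.7, 105.4 and 89.3 in H4R45H, against 167.4, 165.6 and 165.4 in wild type. The limma log2 difference was -0.75 with an SE of 0.076 and an adjusted p of 1.3e-05. SIR2, the histone deacetylase of silent chromatin, had 127.9, 119.8 and 128.7 in H4R45H, against 176.3, 177.9 and 170.4 in wild type, a difference of -0.48 (SE 0.063, adjusted p = 8.2e-05). Both had no overlap between the strains and were also called lower after quantile normalization, at -0.90 and -0.60. DOT1, the methyltransferase of histone H3 in the nucleosome core, fell by 0.24 (adjusted p = 0.0098). SIR3 and SIR4, the structural silencing proteins, had -0.05 (adjusted p = 0.48) and -0.09 (adjusted p = 0.32) as deposited. SIR3 was called lower after quantile normalization (-0.25, adjusted p = 0.0056), median centring (-0.16, adjusted p = 0.049) and cyclic loess normalization (-0.18, adjusted p = 0.025). SIR4 was called lower after median centring (-0.19, adjusted p = 0.034), but not after quantile (-0.19, adjusted p = 0.055) or cyclic loess normalization (-0.12, adjusted p = 0.20). YKU70, of the Ku complex that binds DNA ends, rose by 0.75 on the log2 scale (adjusted p = 0.00023) and by 0.46 after quantile normalization. RIF2, a Rap1 partner with signals of 13.9 to 15.7 in H4R45H, against 9.9 to 11.3 in wild type, was called higher as deposited at 0.49 and lower after quantile normalization at -0.44. Whether these levels have a part in the COS differences was not tested.

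Few genes of the sorting machinery around Cos proteins passed the test. ESCRT proteins and their partners recognise ubiquitin-tagged cargo and form the vesicles of the multivesicular body. Of 21 such genes 5 were called higher and 3 lower as deposited, which is 23.8% and 14.3%, against 37.7% and 28.7% of all probe sets, and the median log2 difference was 0.08. After quantile normalization 2 were higher and 5 lower, or 9.52% and 23.8%, against 27.2% and 36.3% of all probe sets, with a median of -0.04. VPS25, of ESCRT-II, had 123.2, 108.8 and 119.9 in H4R45H, against 73.2, 74.4 and 82.8 in wild type, a log2 difference of 0.61 in limma (SE 0.081, adjusted p = 7.9e-05) and of 0.38 after quantile normalization. VPS28, of ESCRT-I, had 59.6, 63.0 and 67.7 in H4R45H, against 85.5, 85.4 and 82.7 in wild type, and fell by 0.42 on the log2 scale (adjusted p = 0.00077). STP22, another ESCRT-I subunit, rose by 0.29 on the log2 scale and was not called after median centring (0.19, adjusted p = 0.062). The ubiquitin protease gene DOA4 rose by 0.49 and was not called after quantile normalization (0.20, adjusted p = 0.073).

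**Figure D5:**
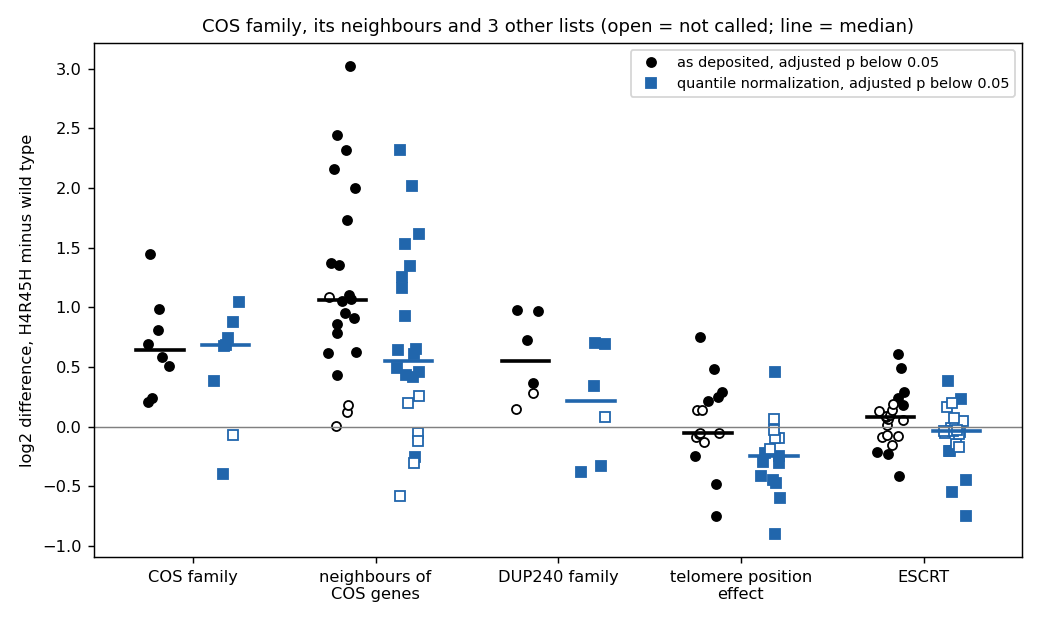
Log2 difference, H4R45H minus wild type, of the COS family, the genes next to its members and 3 other lists, as deposited (black circles) and after quantile normalization (blue squares). Open symbols did not pass the test and lines are medians. The COS median is 0.64 as deposited and 0.68 after quantile normalization, and that of the telomere position effect genes is -0.05 and -0.25.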

How the data were processed

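The authors deposited 1 intensity per probe set and array, on a linear scale. Per the submitters' processing notes they were made with MAS5, which summarises probe pairs into a signal. Its version, scaling target and detection calls are not given in the sources used here, and whether arrays were centred on a target is unknown. The 7 values at 0 were set to 0.1, the smallest positive value. No columns of other samples were used.

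Groups follow the labels. The platform annotation named the probe sets, with symbols updated through Entrez IDs to RefSeq (R64). Of 5716 probe sets, 5498 were assigned to 1 gene, and the other 218 had none or more than 1. No 2 arrays shared more than 0.63% of values. Gene order came from R64, and no coordinates are given.

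limma 3.58.1 in R 4.3.3 (lmFit, eBayes with trend, all 6 arrays) was fitted to log2 signals of the whole table, two-sided, with Benjamini-Hochberg adjustment and a threshold of 0.05. SE is that of the log2 difference. The fit was tested on simulated data. Alternatives were other scalings, no variance trend, a pseudocount of 50, a replicate block, a fit without the dimmest 25%, leaving out each array, leaving out _s_at and _x_at sets, 1 set per gene, leaving out COS111 and a 1.5-fold minimum.

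The members and lists were chosen with earlier results of these data known. Named are all COS probe sets and up to 4 called members of each other list by size. In addition, genes beside COS genes, PRM9, SIR3, SIR4 and DOT1 were named after their values were seen. Lists were counted by probe set, with no list test. Protein and promoter comparisons were planned and are not analysed here.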

Additional observations from a re-analysis of the deposited data

How the results depend on the processing

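The median log2 difference of all 9 COS probe sets stayed between 0.55 (pseudocount of 50) and 0.84 (without _s_at and _x_at sets), and between 0.63 and 0.79 when single arrays were left out. Of the 9, 8 to 9 were called higher without single arrays, and 5 with a minimum of 1.5-fold. Quantile normalization called 1 lower. Leaving out the dimmest 25% of probe sets removed COS10, COS12 and COS111 from the fit. The 6 left were called higher, as were 1302 of the 4287 probe sets in that fit. Reversed values were -0.40 and -0.18 for COS10, -0.070 and -0.018 for COS9, -0.44 and -0.27 for RIF2, -0.26 and -0.20 for SRY1 and -0.58 and -0.83 for YNR075C-A, each after quantile and cyclic loess normalization in that order, and -0.051 for PAU24 after quantile normalization. SRY1 was also at -0.095 after median centring, and without single arrays it lay between -0.049 (without H4R45H replicate 3) and 0.063, and YNR075C-A between -0.12 (without H4R45H replicate 3) and 0.46. After quantile and cyclic loess normalization, PRM9 was also reversed, at -0.33 and -0.25, as were the plain set of MST28, at -0.38 and -0.29, and YFL064C, at -0.30 and -0.14. The cause was not tested. ESCRT had 2 higher and 5 lower after quantile normalization, against 27.2% and 36.3% of all probe sets. Its counts were the same after median centring, against 1767 higher and 2179 lower of all 5716 probe sets. Without single arrays ESCRT had 3 to 7 higher and 2 to 4 lower (fewest higher without wild type replicate 2). Telomere position effect genes had 1 higher and 9 lower in the quantile fit, 1 and 6 in the cyclic loess fit, 2 and 6 when median-centred, and 3 to 5 higher without single arrays (fewest without H4R45H replicate 1, wild type replicate 1 or wild type replicate 2). RIF2 was not called without H4R45H replicate 1 (0.44, adjusted p = 0.052). DUP240 had 2 lower after quantile normalization, and the COS neighbours 1 lower there (SRY1) and 1 with cyclic loess (YNR075C-A). Without the dimmest 25% fewer probe sets were fitted, 4287 in all, of which 1302 were called higher and 1532 lower. Called higher were 2 of 2 DUP240, 0 of 9 telomere position effect (0 at an unadjusted p under 0.05 in limma) and 5 of 7 neighbour sets. Called lower were 3 of the 9 telomere position effect sets and 0 of the DUP240 and neighbour sets.

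Replicate numbers did not pair the arrays. The correlation of deviations between same-numbered arrays was 0.10, -0.00070 and -0.18. Between differently numbered arrays it ran from -0.36 (H4R45H replicate 1 with wild type replicate 2) to 0.35 (H4R45H replicate 3 with wild type replicate 2). Whether arrays belong together in another order was not tested. With the replicate block the COS counts were 9 higher and 0 lower with a median of 0.69, the other lists had 5 and 3 (ESCRT), 4 and 0 (DUP240), 5 and 3 (telomere position effect) and 18 and 0 (neighbours), and no call of a gene named here changed. Without detection calls, how far the signals of COS10 lie above background is not known.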
